A study of Mus musculus with 6 samples.

Results

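The BMP, TGF-beta and activin signalling genes were taken as every row of the deposited table whose symbol starts with Bmp, Tgfb, Gdf, Inhb, Acvr or Smad, which gave 53 of 19445 loci. By role these were 27 ligands, 7 type I receptors, 4 type II receptors, 1 co-receptor, 8 Smads and 6 other proteins that share a prefix. RNA-Seq was performed on inguinal subcutaneous white fat (iWAT) of 12-week-old mice, with 3 Hlx transgenic (TG) mice and 3 wild type (WT) mice and 1 library from each mouse. The TG mice carried an Hlx cDNA driven by the aP2 (Fabp4) promoter, which is active in adipocytes, from founders on a mixed C57BL/6 and SJL background that were backcrossed to C57BL/6. WT mice were littermates without the transgene. Hlx is a homeobox transcription factor, and the comparison asks how the RNA of each signalling gene differs when it is overexpressed in fat. Levels are in FPKM, fragments scaled by transcript length and by the mapped reads of the library, which allows levels of different genes to be set side by side.

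Ligands of this superfamily are secreted dimers that bring together type I and type II receptor kinases, and the type I receptor then phosphorylates a receptor-regulated Smad. BMP-type receptors act mainly on Smad1, Smad5 and Smad9, and TGF-beta and activin receptors on Smad2 and Smad3; all of these pair with Smad4 in the nucleus, while Smad6 and Smad7 are inhibitory. In fat, BMP ligands are known for roles in adipocyte commitment and in brown adipocyte formation, and TGF-beta for restraint of adipogenesis and for matrix production.

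Hlx RNA was 96.2 ± 15.3 FPKM in TG and 7.45 ± 0.637 in WT (SD, n = 3), so the genotype labels held in every mouse. The labels give all mice as male, but Xist was at 20.2 to 33.6 FPKM in all 6 libraries and 28 Y chromosome loci were at 0. These values go against the male label in both genotypes. Relative depth, estimated from low values, ranged from 0.693 to 1.40 of that of WT replicate 3, and the absolute depth is unknown. Adipocyte markers were present in every library, with 1 of 8 lower in TG, and 5 of 6 brown adipocyte markers were higher. Skeletal muscle markers summed to 895 FPKM in TG replicate 2 and to 207 to 358 FPKM in the other mice, with 0 of 6 called. Tnnt3 was at 163 to 254 FPKM in those mice and made up most of their sums. It was highest in TG replicate 2, at 333 FPKM, as the other muscle markers were. Across the other mice it did not follow them: in WT replicate 1 it was at 200 FPKM, with Ckm at 0.0657 and Myh4 at 0. These sums are therefore a poor measure of muscle RNA. Without it, a choice made after the values were seen, the other 5 markers summed to 78.1, 562 and 114 FPKM in TG mice 1 to 3 and to 7.14, 120 and 34.4 in WT mice 1 to 3, so muscle RNA was uneven within both genotypes and highest in TG replicate 2. In limma, without TG replicate 2, 4 members were higher in TG and 6 lower, beside 1295 and 906 of 11689 loci. In bulk tissue, fewer cells of a type and less RNA per cell cannot be told apart.

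Of the 53 members, 36 had a mean above 1 FPKM in at least 1 genotype and were tested. In TG iWAT, 3 members were higher than in WT (Gdf5, Tgfbr2 and Smad6) and 7 were lower (Bmp2, Bmp3, Gdf11, Tgfb1, Acvr1b, Bmp2k and Tgfbi) at an adjusted p under 0.05 from limma. These are 8.33% and 19.4% of the tested members, beside 11.6% of all 11692 tested loci called higher and 7.03% called lower. The genotypes did not overlap for 18 of the 36 members, or 50.0%, beside 42.9% of all loci. Tested ligands had a median log2 fold change (TG minus WT) of -0.35, receptors of -0.15 and Smads of -0.14, beside -0.01 over all loci. Fold changes are of FPKM + 1 and so understate changes of low genes. Gdf5 passed the level filter only through TG (mean 1.03 FPKM), and Bmp4 (1.22) and Acvr2b (1.11) only through WT, so these had to differ to some degree and stand just inside the threshold.

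**Figure D1:**
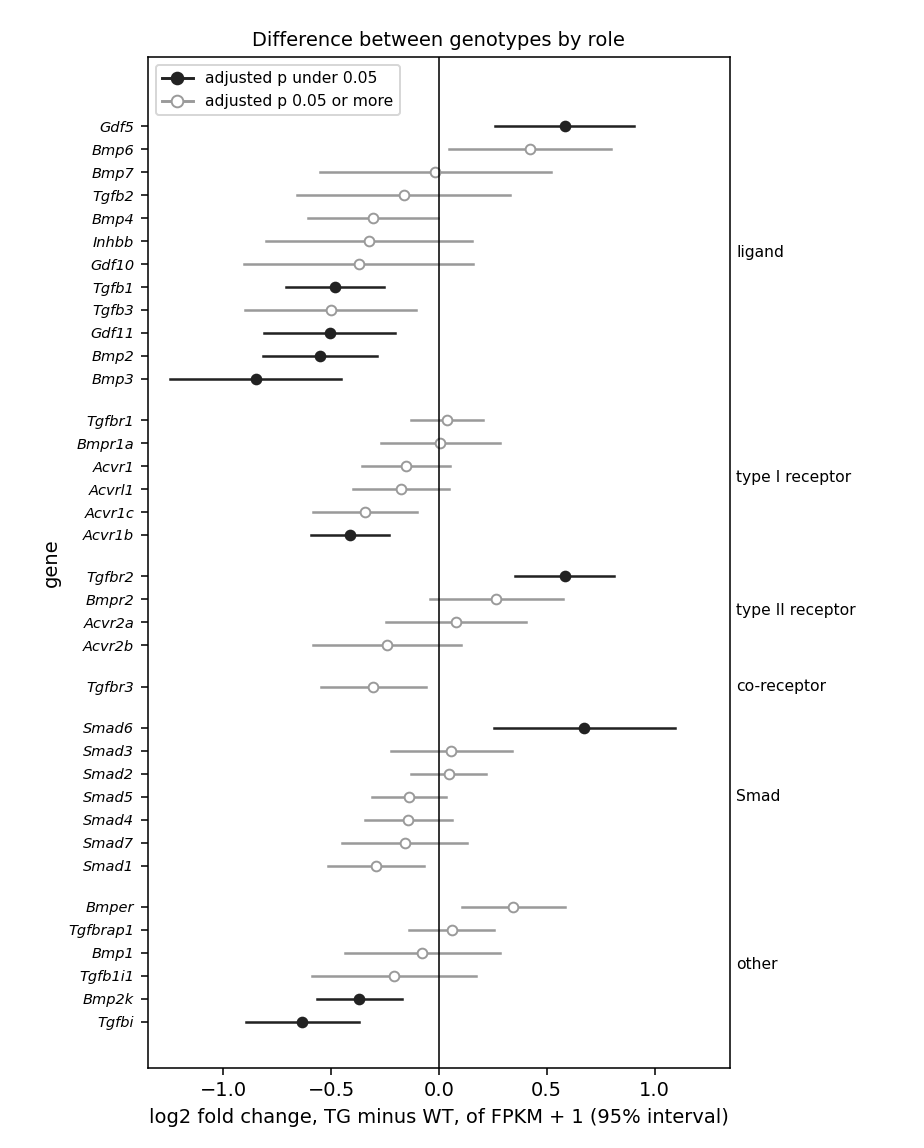
Log2 fold change, TG minus WT, of FPKM + 1 (horizontal axis, with 95% interval) for the 36 tested members by role (vertical axis). Filled points are the 10 members called by limma. Left of 0 lie 10 of the 12 ligands, among them Bmp4, which passed the level filter only through WT. Gdf5, right of 0, passed it only through TG. The median over all loci is -0.01.

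In mm10 the table places the called members at the following intervals, which for Gdf11 and Bmp2k also hold a neighbouring gene: Bmp2 (chromosome 2, 133552239 to 133562885), Bmp3 (chromosome 5, 98854432 to 98884981), Gdf11 (chromosome 10, 128821738 to 128891718), Gdf5 (chromosome 2, 155941024 to 155945364), Tgfb1 (chromosome 7, 25687001 to 25705076), Acvr1b (chromosome 15, 101174094 to 101214216), Tgfbr2 (chromosome 9, 116087694 to 116175363), Smad6 (chromosome 9, 63953075 to 64022059), Bmp2k (chromosome 5, 96997688 to 97111596) and Tgfbi (chromosome 13, 56609602 to 56639339).

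Promoter sequence is shown for 4 called members, the most abundant called ligand, the called type II receptor, the called inhibitory Smad and the TGF-beta-induced matrix protein. Each run holds 250 bases before the annotated start and 10 from it, read 5′ to 3′ on the gene's strand from RefSeq (GRCm38.p6). Capitals mark CAGAC, the core bound by Smad3 and Smad4, its reverse complement GTCTG, the GC-rich site GGCGCC and the palindrome GTCTAGAC.
Tgfbr2, chr9:116175354-116175613, minus strand: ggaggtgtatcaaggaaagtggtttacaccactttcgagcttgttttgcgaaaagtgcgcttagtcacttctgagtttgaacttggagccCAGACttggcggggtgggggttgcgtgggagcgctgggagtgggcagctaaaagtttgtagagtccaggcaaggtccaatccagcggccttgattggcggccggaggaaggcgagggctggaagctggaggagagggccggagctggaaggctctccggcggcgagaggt
Smad6, chr9:64022050-64022309, minus strand: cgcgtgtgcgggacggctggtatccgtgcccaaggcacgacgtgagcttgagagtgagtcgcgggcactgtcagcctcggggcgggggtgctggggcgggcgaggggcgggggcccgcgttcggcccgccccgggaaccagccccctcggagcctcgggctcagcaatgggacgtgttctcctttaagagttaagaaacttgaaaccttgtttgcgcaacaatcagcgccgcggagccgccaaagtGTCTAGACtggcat
Tgfb1, chr7:25686752-25687011, plus strand: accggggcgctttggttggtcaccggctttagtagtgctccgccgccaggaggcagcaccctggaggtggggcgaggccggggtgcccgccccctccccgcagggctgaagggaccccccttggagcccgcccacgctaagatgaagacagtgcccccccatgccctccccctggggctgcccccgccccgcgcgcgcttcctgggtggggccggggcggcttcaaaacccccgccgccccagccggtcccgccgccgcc
Tgfbi, chr13:56609336-56609595, plus strand: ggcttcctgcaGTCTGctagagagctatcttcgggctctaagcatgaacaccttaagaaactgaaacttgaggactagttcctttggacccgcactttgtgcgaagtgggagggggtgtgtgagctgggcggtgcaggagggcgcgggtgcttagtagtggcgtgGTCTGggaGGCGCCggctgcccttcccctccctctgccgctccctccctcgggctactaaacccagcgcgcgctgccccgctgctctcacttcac
RefSeq promoters were at hand for 38 of the 53 members and for 7 of the 10 called ones. In the 250 bases before the start, on both strands, CAGAC was in 2 of these 7 and in 42.2% of all 32851 promoters, GGCGCC in 2 and in 9.59%, and the homeodomain core TAAT in 0 and in 54.9%. GTCTAGAC was in 0 of the 7 and in 0.167% of all promoters in those bases. The search was then widened to the whole 300-base window, after it was seen that a copy in Smad6 lies across the start: GTCTAGAC was then in 1 of 7 (Smad6) and in 0.213%, CAGAC in 2 and in 49.6%, GGCGCC in 3 and in 11.9%, and TAAT in 0 and in 58.0%. The motifs do not overlap in the runs shown, and a match is a description of letters only.

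Of the 12 tested ligands, 4 fell and 1 rose in TG, or 33.3% and 8.33%, beside 7.03% and 11.6% of all loci. Summed over all 27 ligands, RNA was 87.9 ± 5.82 FPKM in TG and 119 ± 3.14 in WT, and the genotypes did not overlap. Tgfb1, the main TGF-beta isoform of immune and stromal cells, was the most abundant ligand, with 41.5% of the ligand sum in TG and 42.9% in WT. It was at 35.6, 39.7 and 34.1 FPKM in TG mice 1 to 3 and at 49.9, 47.8 and 56.3 in WT mice 1 to 3. Every TG mouse lay below every WT mouse. Tgfb1 fell by 0.48 on the log2 scale (SE 0.10, adjusted p = 0.0170, limma), and the call was lost without TG replicate 3 (adjusted p = 0.0658, limma), without WT replicate 3 (0.0543) and without the filter (0.0517). Macrophage markers moved alongside, with 4 of 5 lower and a sum of 89.5 to 113 FPKM in TG and 147 to 186 in WT, none of them at 0. Fibroblast and progenitor markers summed to 1066 to 1360 FPKM in TG and 1645 to 1826 in WT, with 1 of 7 lower and none at 0. The called marker, Dpt, averaged 202 FPKM in TG and 518 in WT, and Dcn 652 and 849 without a call. Lum and Cd34 were not lower, with a ratio of TG to WT of 1.04 each. Lymphocyte markers summed to 274 to 369 FPKM in TG and 352 to 483 in WT, with overlap and 1 of 6 lower. Their median log2 fold change was -0.41. Pericyte and smooth muscle markers summed to 186 to 207 FPKM in TG and 211 to 227 in WT, with 1 of 6 lower. Their median log2 fold change was 0.02. The part of any of these lists in the Tgfb1 result or in the ligand sum was not tested.

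Bmp3, a BMP that counters the activity of other BMPs, was at 4.07, 3.93 and 4.47 FPKM in TG and at 7.54, 11.1 and 6.73 in WT. WT replicate 2 was the highest mouse, and the genotypes did not overlap. Bmp3 fell by 0.85 on the log2 scale (SE 0.17, adjusted p = 0.0161, limma). Bmp2, an osteogenic ligand that also drives adipocyte commitment, was at 1.20, 1.14 and 1.10 FPKM in TG and at 1.98, 2.01 and 2.46 in WT. Its level in the TG mice was 53.3% of that in WT. Bmp2 fell by 0.55 (SE 0.11, adjusted p = 0.0174, limma), or by 0.85 with 0.1 in place of 1 added to the FPKM, a call lost with 1 added without TG replicate 3 (adjusted p = 0.0592, limma) and without WT replicate 3 (0.0637).

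Gdf11, a ligand of activin-type receptors, was at 1.92, 2.11 and 2.01 FPKM in TG and at 3.07, 2.80 and 4.07 in WT. It fell by 0.51 (SE 0.13, adjusted p = 0.0366, limma), but the call was lost in 7 of 14 alternatives. Leaving out any 1 of TG replicates 1, 2 and 3 or WT replicates 1 and 3 gave adjusted p values from limma of 0.0896, 0.0617, 0.0955, 0.0709 and 0.0883. The Gdf11 locus in the table covers the same interval as Sarnp, and reads of the 2 genes cannot be told apart by strand. Gdf5, a BMP-type ligand known from joint and cartilage, was the called ligand that rose. It was at 1.12, 0.930 and 1.05 FPKM in TG and at 0.451, 0.413 and 0.212 in WT. All Gdf5 values were near or below 1 FPKM. The rise was 0.58 (SE 0.14, adjusted p = 0.0279, limma) with 1 added to the FPKM and 1.34 (adjusted p = 0.0409) with 0.1 added, and the ratio of the mean FPKM was 2.88. With 1 added, the call was lost without TG replicate 3 (adjusted p = 0.0828, limma) or without WT replicate 1 (0.0515), 2 (0.0672) or 3 (0.0865). Without TG replicate 1, or when the mean over all mice had to pass 1 FPKM, Gdf5 missed the filter and was not tested. It entered the test only through its level in TG, so its p-values describe these levels and add no support for a rise.

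**Figure D2:**
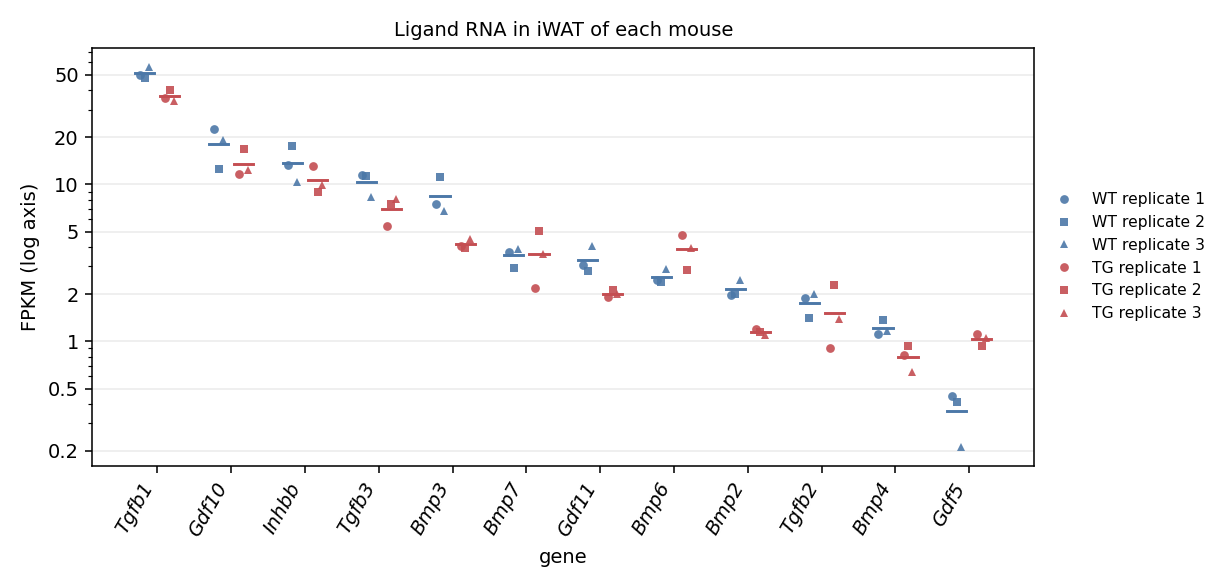
FPKM (log axis) of the 12 tested ligands in each of 3 WT and 3 TG mice, ordered by mean WT level, with points for mice and lines for group means. Tgfb1 is the highest, and Gdf5 is the lowest in WT.

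The other 7 tested ligands did not pass. Tgfb3 averaged 6.99 ± 1.39 FPKM in TG and 10.3 ± 1.78 in WT without overlap (adjusted p = 0.0793, limma). Bmp4, a ligand of adipocyte commitment, averaged 0.795 ± 0.151 and 1.22 ± 0.139, also without overlap (adjusted p = 0.133, limma). Bmp6, which can promote brown adipocyte formation, was at 4.77, 2.84 and 3.96 FPKM in TG and 2.46, 2.40 and 2.88 in WT. TG replicate 2, the mouse with the highest muscle marker sum, lay within the WT range, and a link of Bmp6 to muscle RNA was not tested. The log2 fold change of Bmp6 was 0.42 (adjusted p = 0.106, limma) and ran from 0.29 without TG replicate 1 (adjusted p = 0.240) to 0.58 without TG replicate 2 (adjusted p = 0.0292), the 1 fit of 6 with a mouse left out that called it. The Bmp6 locus shares its interval with Txndc5. Gdf10 (log2 fold change -0.37), Inhbb, the activin B subunit (-0.32), Tgfb2 (-0.16) and Bmp7, a brown adipocyte differentiation factor (-0.02), overlapped between genotypes, with limma adjusted p values of 0.273, 0.287, 0.605 and 0.965.

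Of the 4 tested type II receptors 1 rose, or 25%, beside 11.6% of all loci called higher. Tgfbr2, the TGF-beta-binding kinase whose promoter is printed above, was at 81.3, 85.7 and 75.7 FPKM in TG and at 52.4, 49.5 and 59.4 in WT. The lowest TG mouse stood well over the highest WT mouse. Tgfbr2 rose by 0.58 (SE 0.10, adjusted p = 0.00882, limma) and kept the call in all 14 alternatives, the highest adjusted p among them being 0.0347. It made up 86.3% of type II receptor RNA in TG and 82.7% in WT. Endothelial markers were higher for 2 of 8, with a sum of 184 to 200 FPKM in TG and 169 to 181 in WT, none at 0. Pecam1 and Tek of that list had log2 fold changes of -0.09 and -0.11, and the others lay above 0. The macrophage and the fibroblast and progenitor sums were lower in TG, with ratios to WT of 0.60 and 0.68. The part of these lists in the Tgfbr2 result was not tested. Bmpr2 (log2 fold change 0.27), Acvr2a (0.08) and Acvr2b (-0.24) did not pass, with limma adjusted p values of 0.188, 0.704 and 0.272, and Acvr2a shares its interval with Mbd5 and Orc4.

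Among type I receptors, 1 of 6 tested fell, or 16.7%, beside 7.03% of all loci called lower. Acvr1b, the activin receptor ALK4, was at 4.69, 4.71 and 4.56 FPKM in TG and at 6.16, 6.74 and 6.70 in WT. Mice of 1 genotype were close together, and the genotypes did not overlap. Acvr1b fell by 0.41 (SE 0.08, adjusted p = 0.0128, limma), a call lost without TG replicate 3 (adjusted p = 0.0511, limma) and without WT replicate 2 (0.0548). Acvr1c, the receptor ALK7 of adipocytes, averaged 10.3 ± 1.13 FPKM in TG and 13.3 ± 1.02 in WT without overlap (adjusted p = 0.0589, limma). Tgfbr1, the partner of Tgfbr2, had a log2 fold change of 0.04 with a 95% interval of -0.13 to 0.21, and Bmpr1a one of 0.01 with an interval of -0.27 to 0.28. Acvr1 (-0.15) and Acvrl1, an endothelial receptor (-0.17), did not pass either, with limma adjusted p values of 0.243 and 0.228. The co-receptor Tgfbr3 averaged 21.1 ± 1.37 FPKM in TG and 26.4 ± 3.04 in WT without overlap (adjusted p = 0.0813, limma).

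Among the 7 tested Smads, 1 rose, the inhibitory Smad6, or 14.3% beside 11.6% of all loci called higher. It was at 6.55, 4.02 and 5.85 FPKM in TG and at 3.65, 2.92 and 2.51 in WT. TG replicate 2 was closest to the WT mice, but the genotypes did not overlap. Smad6 rose by 0.67 (SE 0.18, adjusted p = 0.0414, limma), a call lost in 5 alternatives, among them without TG replicate 1 (adjusted p = 0.106, limma), without TG replicate 3 (0.119), without WT replicate 2 (0.102) and without WT replicate 3 (0.126). For Smad7, the other inhibitory Smad, TG minus WT was -0.16 on the log2 scale (adjusted p = 0.380, limma). Of the BMP-type Smads, Smad1 averaged 8.67 ± 0.769 FPKM in TG and 10.8 ± 0.836 in WT (adjusted p = 0.0724, limma) and Smad5 10.4 ± 0.385 and 11.5 ± 0.462 (adjusted p = 0.211), both without overlap. Smad2 (0.05), Smad3 (0.06) and Smad4 (-0.14) overlapped between genotypes, with limma adjusted p values of 0.688, 0.755 and 0.271.

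**Figure D3:**
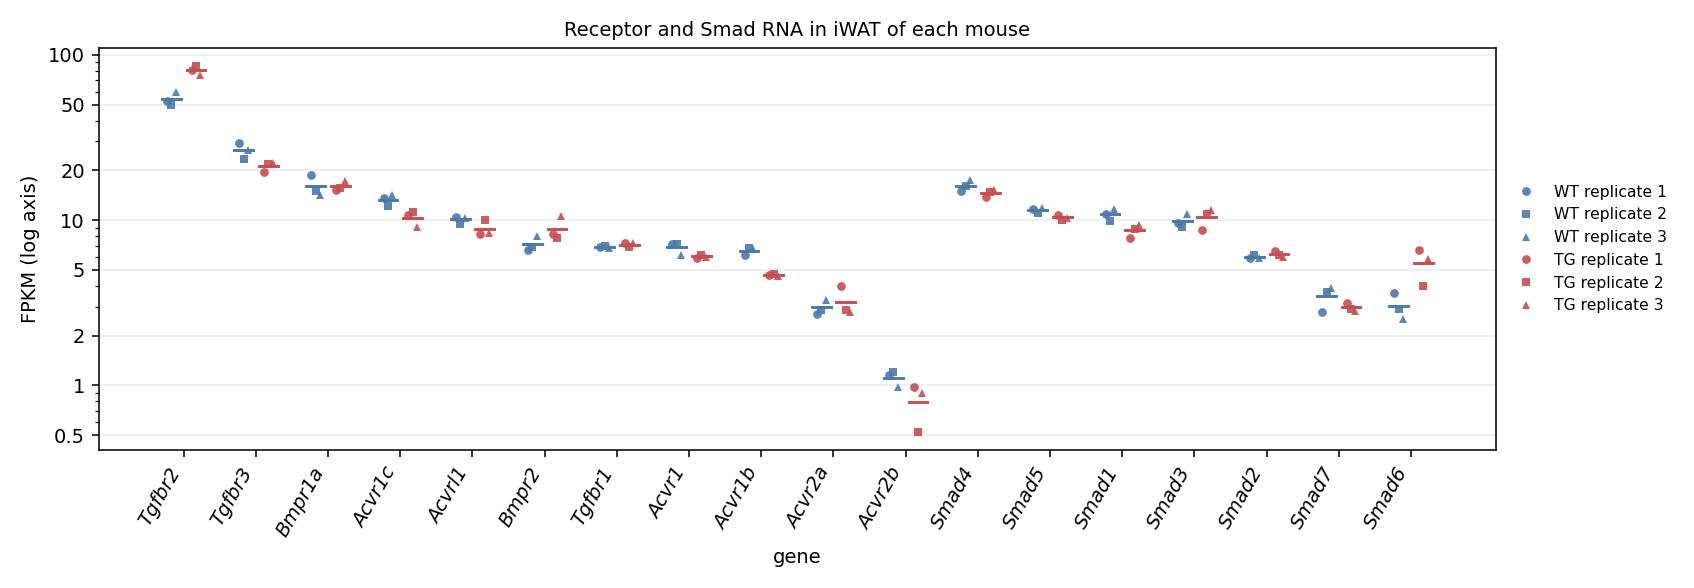
FPKM (log axis) of the 11 tested receptors and then the 7 tested Smads in each of 3 WT and 3 TG mice, each group ordered by mean WT level, with points for mice and lines for group means. Tgfbr2 is the highest in both genotypes.

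Ratios within each mouse, chosen after the values were seen, describe the same levels without a test. Tgfbr2 to Tgfb1 was 2.22 ± 0.0629 in TG and 1.05 ± 0.0110 in WT. Smad6 to Smad7 was 1.84 ± 0.401 and 0.917 ± 0.351, and Bmp6 to Bmp2 3.36 ± 0.774 and 1.20 ± 0.0397. In each the genotypes did not overlap. For Tgfbr2 to Tgfb1 this had to follow, because both genes separated the genotypes, in opposite directions. Smad6 and Bmp2 separated them alone, and Smad7 and Bmp6 did not. The ratios therefore add no support to the single genes.

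Of the 6 other proteins, 2 fell, or 33.3%, beside 7.03% of all loci called lower. Tgfbi, a matrix protein induced by TGF-beta, was at 30.6, 37.2 and 29.3 FPKM in TG and at 52.7, 46.5 and 52.6 in WT. Its TG mice all lay below its WT mice. Tgfbi fell by 0.63 (SE 0.11, adjusted p = 0.0104, limma) and kept the call in all 14 alternatives. The macrophage, the fibroblast and progenitor, and the pericyte and smooth muscle marker sums given beside Tgfb1 were lower in TG as well. Lum and Cd34 were not lower, and the lymphocyte sums overlapped. The part of any of these lists was not tested. Bmp2k, a kinase named for its induction by BMP2, was at 4.39, 4.56 and 4.28 FPKM in TG and at 5.55, 6.05 and 6.40 in WT. Bmp2k fell by 0.37 (SE 0.08, adjusted p = 0.0250, limma), a call lost in 6 of 14 alternatives, including without TG replicate 1 (adjusted p = 0.0598, limma), TG replicate 3 (0.0822), WT replicate 2 (0.0812) and WT replicate 3 (0.0850), and its locus shares an interval with Paqr3. Bmper, a BMP-binding protein, averaged 5.30 ± 0.131 FPKM in TG and 3.98 ± 0.556 in WT without overlap (adjusted p = 0.0565, limma). With 1 mouse left out its log2 fold change ran from 0.28 without WT replicate 2 (adjusted p = 0.156, limma) to 0.43 without WT replicate 3 (adjusted p = 0.0411), the 1 of these 6 fits that called it. Bmp1, a procollagen proteinase that is no BMP ligand, Tgfb1i1 and Tgfbrap1 did not pass, with limma adjusted p values of 0.748, 0.385 and 0.645.

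The 17 members that were not tested had group means of at most 0.574 FPKM. Bmp10, Inhbe and Inhbc were at 0 in all 6 mice. Bmp15, Gdf2, Bmp8b, Gdf7, Bmpr1b, Gdf6 and Inhba stayed under 0.2 FPKM in every mouse. The highest single values were 0.248 for Bmp5, 0.395 for Gdf3, 0.390 for Smad9, 0.618 for Gdf15, 0.777 for Gdf9, 0.741 for Bmp8a and 0.822 for Gdf1, the last of which shares its interval with Upf1.

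Outside the prefixes, 71 genes of the wider pathway were in the table and 56 were tested, of which 2 rose and 3 fell with a median log2 fold change of -0.02. These are 3.57% and 5.36% of those tested, beside 11.6% and 7.03% of all loci. The list was chosen with results of these data known. Chrdl1, a secreted BMP antagonist, was at 3.91, 5.34 and 4.74 FPKM in TG and 20.4, 17.6 and 16.0 in WT, and fell by 1.75 (SE 0.13, adjusted p = 0.000581, limma). It was the only called gene among 10 tested antagonists and binders; Fstl1, Nbl1 and Twsg1 had log2 fold changes of -0.13, -0.47 and 0.06 without a call.

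Ltbp2, a matrix protein related to the latency proteins of TGF-beta, was at 46.6, 42.5 and 43.2 FPKM in TG and 14.9, 14.1 and 16.9 in WT, and rose by 1.47 (SE 0.09, adjusted p = 0.000324, limma). Pcsk6, a convertase that cleaves ligand precursors, was at 21.8, 22.1 and 19.3 FPKM in TG and 34.3, 38.4 and 29.1 in WT, and fell by 0.65 (SE 0.12, adjusted p = 0.0106, limma). These were the calls among 9 tested latency and processing genes, where Ltbp3, Furin and Ltbp4 had log2 fold changes of 0.27, 0.20 and -0.31 without a call. None of 4 tested accessory receptors passed in limma (Eng 0.12, Rgma -0.20, Neo1 0.12).

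Nedd4l, a ubiquitin ligase that acts on Smads, was at 11.4, 9.12 and 9.76 FPKM in TG and 6.18, 6.12 and 7.00 in WT, and rose by 0.58 (SE 0.10, adjusted p = 0.0112, limma), the 1 call among 17 intracellular regulators. Fkbp1a, Ppm1a and Tab2 had log2 fold changes of 0.11, 0.17 and 0.13 without a call. Of 8 TGF-beta response genes, Ctgf, a matricellular protein, was called, at 2.97, 2.71 and 3.76 FPKM in TG and 7.84, 10.4 and 4.79 in WT, and fell by 1.02 (SE 0.24, adjusted p = 0.0290, limma). That call was lost without any 1 of TG replicates 1, 2 and 3 or WT replicates 1 and 2 (adjusted p = 0.0574 to 0.0781 in these fits, limma). Acta2, Col1a1 and Fn1 had log2 fold changes of -0.35, -0.22 and -0.19 without a call. Of 8 BMP response genes 0 passed in limma, with Id1, Id3 and Id2 at -0.15, 0.32 and 0.12.

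**Figure D4:**
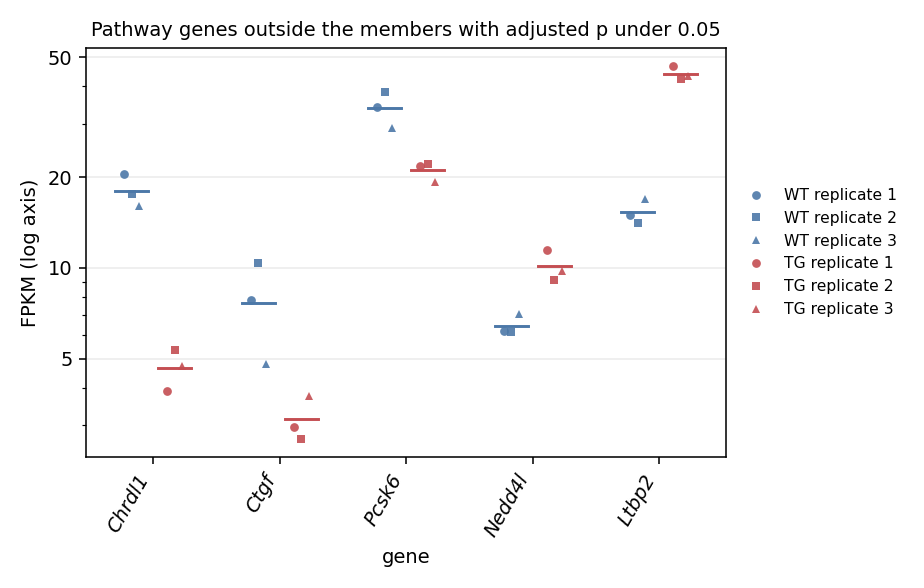
FPKM (log axis) of the 5 called pathway genes outside the prefixes in each of 3 WT and 3 TG mice, with points for mice and lines for group means. Chrdl1, Ctgf and Pcsk6 are lower in every TG mouse than in every WT mouse, Nedd4l and Ltbp2 higher.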

How the data were processed

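RNA of iWAT from 3 TG and 3 WT mice was sequenced from TruSeq v2 libraries, which do not mark strand. Per the labels, the authors' processing used CASAVA 1.8.2, TopHat2 2.0.9, Bowtie2 2.1.0, Cufflinks 2.2.1 and the mm10 build, and the deposited values are FPKM per locus; the annotation is not given in the sources used here. Loci with a mean above 1 FPKM in at least 1 genotype were tested on log2(FPKM + 1) with limma 3.58.1 (R 4.3.3; lmFit, then eBayes with trend), two-sided, with Benjamini-Hochberg adjustment over 11692 loci, and called at 0.05. A single value can reach an exact permutation p of 0.1 at the lowest, over 20 arrangements. WT mice were littermate controls, but which mice share a litter is not given, so p-values measure the spread between these mice. The members and gene lists were chosen with earlier results of these data known; every member is named, with each called pathway gene and up to 3 others in a list by mean FPKM. The script was tested on simulated data. Alternatives changed the pseudocount, filter, scaling, weights, block and mice; those for the 5 pathway genes, the muscle sum without Tnnt3 and the wider promoter window were added after the data were seen.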

Additional observations from a re-analysis of the deposited data

How the results depend on the processing

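With adjusted p from limma, the 3 higher members became 1 to 4 and the 7 lower ones 2 to 6 when 1 mouse was left out. Lower members numbered 3 without the level filter, 4 with an added 1.5-fold ratio and 4 with the replicate block. The ligand median was -0.084 without the filter, which adds ligands near 0, the receptor median was -0.074 when the mean over all mice had to pass 1 FPKM, and the Smad median ran from -0.14 without mice left out to between -0.13 and -0.086 with 1 left out. Over all loci, the 1352 higher and 822 lower calls became 748 and 381 without the filter. With 1 mouse left out there were 780 to 1295 higher and 329 to 906 lower, the lower calls exceeding 822 only without TG replicate 2. Tgfbr2 and Tgfbi were called in every alternative, 0 of the 10 called members turned direction, and 7 of 26 uncalled ones did in at least 1 alternative. Acvr1c was called with sample quality weights (adjusted p = 0.0396, limma). Deviations from the genotype mean over tested loci correlated at 0.013, 0.034 and 0.070 for same-numbered mice. Other-numbered mice gave -0.186 to 0.135, so these values show no pairing by replicate number but cannot exclude one. With the replicate block Bmp2, Gdf11, Gdf5, Bmp2k and Ctgf lost their calls (adjusted p = 0.0510, 0.0654, 0.0655, 0.0574 and 0.0678, limma). Without the filter Bmp3, Gdf11, Tgfb1, Smad6, Bmp2k, Pcsk6 and Ctgf also lost theirs (adjusted p = 0.0776, 0.0976, 0.0517, 0.135, 0.0501, 0.0502 and 0.117, limma). Absolute depth is unknown, so no counting error can be given for low members.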
